A study of Rattus norvegicus with 16 samples.

Results

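The baseline transcriptome described here was that of cultured rat cells labelled as satellite cells of the levator ani muscle, given vehicle only. It comprised 7 arrays of the 16 in the series, chosen as the vehicle arrays that the authors kept: 4 h replicates 1 to 4 and 48 h replicates 2 to 4. Vehicle was 0.2% DMSO, and no compound was present. Cells were at passage 5, grew in DMEM/F-12 with 10% serum, and were in charcoal-stripped serum during the treatment. The other groups received 10 nM of NARA, a nonsteroidal androgen receptor agonist, for 4 h or 48 h, and enter only where named. The strain, age and sex of the animals and the way the cells were isolated were not given in the sources used here. Titles name biological replicates but no separate animal or culture for each. A p-value here therefore measures only the spread between samples, and that spread may be technical.

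Satellite cells are the stem cells of skeletal muscle. Resting and activated satellite cells are recognised by the transcription factors Pax7 and Myf5 and by surface proteins such as M-cadherin (Cdh15), and committed myoblasts by Myod1, Myog and the muscle filament protein desmin (Des). Muscle also holds fibroblasts and fibro-adipogenic progenitors, mesenchymal cells that make fibrillar collagens and small proteoglycans such as lumican (Lum) and that are rich in S100a4. Fibroblasts often outgrow myoblasts in cultures taken from muscle, which is why both sets of markers are read on such cells.

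Each measurement was the brightness of an Affymetrix probe set, deposited as a MAS5 signal on a linear scale. The 14217 genes with a symbol of their own were ranked by their brightest probe set, averaged over the 7 arrays. Probe sets differ in affinity, so a rank is one of brightness and not of transcript number. Of 4525 genes with several probe sets, the brightest exceeded the dimmest by a median of 3.61 times, and by over 10 times in 21.7%. Genes were therefore placed in bands. "Highly" stands for the brightest 10.0% of genes, "barely" for a mean signal under 300, and "moderately" for the rest.

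The 7 arrays held much the same ranking. They correlated with each other at r = 0.937 to 0.956 over all probe sets, a description in which the probe sets share the same 7 libraries. Pairs of the same time lay at 0.939 to 0.951 and pairs of different times at 0.937 to 0.956. Of the 100 brightest genes, each array shared 93 to 98 with the mean of the others. Median signals were 539 to 613, and the 3'/5' signal ratio, a sign of RNA integrity, was 2.52 to 3.34 for the actin control and 1.11 to 1.36 for the Gapdh control. Vehicle 48 h replicate 1, left out by the authors, correlated with the 7 at 0.925 to 0.933. The authors also left out NARA 4 h replicates 1 and 4, which correlated with the 7 at only 0.645 to 0.669. In those arrays albumin (Alb) had signals of 191486 and 288154, against 655 ± 170 (SD, n = 7) in vehicle, and all 19 liver genes looked up were brighter than in every vehicle array. They went against their label as cultured muscle cells. Their actin ratios were 7.981 and 4.955, their Gapdh ratios 3.34 and 2.145 and their median signals 651 and 786. Each of these lay above the range of the 7, so RNA integrity and signal level differed as well. The left-out NARA arrays serve below only as a reading of the same probe sets in RNA of another makeup and integrity, with no test.

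The 5 marker genes of most use for the identity of the cells fell into separate bands, and the sequences just upstream of their starts are shown here because the genes stood at opposite ends of the myogenic and mesenchymal contrast. Each is 250 bases before the RefSeq start in build GRCr8, on the plus strand, with the letters TATAAA (the core of a TATA box) and CANNTG (the E-box letters bound by myogenic factors and many others) in capitals. Both motifs were searched on both strands, and no match overlapped another. Myog was added for its role in muscle differentiation, and Col1a1 had no entry in the promoter table.

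S100a4, chr2:178388279-178388528: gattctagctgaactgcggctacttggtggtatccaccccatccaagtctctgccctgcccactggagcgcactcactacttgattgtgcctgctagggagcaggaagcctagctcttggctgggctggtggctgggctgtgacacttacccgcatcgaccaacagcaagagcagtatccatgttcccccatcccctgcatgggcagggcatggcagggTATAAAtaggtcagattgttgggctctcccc
Lum, chr7:34245456-34245705: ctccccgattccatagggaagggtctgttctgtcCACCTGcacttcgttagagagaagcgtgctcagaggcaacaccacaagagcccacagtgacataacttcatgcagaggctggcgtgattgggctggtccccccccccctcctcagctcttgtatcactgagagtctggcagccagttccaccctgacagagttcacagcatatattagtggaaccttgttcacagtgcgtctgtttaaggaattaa
Des, chr9:84299376-84299625: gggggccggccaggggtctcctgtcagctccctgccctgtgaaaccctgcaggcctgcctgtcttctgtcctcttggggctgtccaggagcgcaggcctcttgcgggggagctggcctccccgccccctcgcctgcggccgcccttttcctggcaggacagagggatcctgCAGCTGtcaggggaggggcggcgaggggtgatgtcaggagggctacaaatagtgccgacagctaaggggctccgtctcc
Cdh15, chr19:67814407-67814656: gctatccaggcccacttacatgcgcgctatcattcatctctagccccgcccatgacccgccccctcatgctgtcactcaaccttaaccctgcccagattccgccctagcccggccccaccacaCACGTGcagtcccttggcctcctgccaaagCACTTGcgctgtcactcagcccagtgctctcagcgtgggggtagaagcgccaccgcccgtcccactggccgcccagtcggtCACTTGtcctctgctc
Myog, chr13:48297226-48297475: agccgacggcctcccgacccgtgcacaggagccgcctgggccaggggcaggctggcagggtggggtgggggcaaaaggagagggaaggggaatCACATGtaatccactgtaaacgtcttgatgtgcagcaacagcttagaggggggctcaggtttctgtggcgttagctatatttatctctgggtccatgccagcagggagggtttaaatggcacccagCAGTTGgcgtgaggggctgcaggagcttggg

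The S100a4 sequence held 1 TATAAA, which began 31 bases before the start, and 0 CANNTG. Lum held 1 CANNTG that began 216 bases before the start, and Des held 1 at 79 bases. Cdh15 had 3, and Myog had 2, at 157 and 31 bases. A match is a run of letters and no evidence of binding. Of all 27457 promoters in the table, each with 50 bases past the start added, 71.6% held CANNTG and 14.3% held TATAAA.

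The mesenchymal markers were among the brightest genes in every array. S100a4, a small calcium-binding protein also known as fibroblast-specific protein, ranked 7 of 14217. Its signals were 114257, 139012, 124799 and 100422 in the 4 h arrays and 121818, 102801 and 122033 in the 48 h arrays. The times overlapped, and each of these lay far above the 287 and 431 of the left-out NARA 4 h arrays. Col1a1, a chain of type I collagen, had 63509, 67697, 69219 and 60609 at 4 h and 95818, 69179 and 66346 at 48 h, with vehicle 48 h replicate 2 highest. A second Col1a1 probe set spanned 33573 to 49451. Lum, the proteoglycan lumican, had 40324, 45191, 39414 and 44407 at 4 h and 44221, 40941 and 46151 at 48 h. Its left-out values were 20.3 and 123, and the means of S100a4, Col1a1 and Lum were 117877 ± 13369.6, 70339 ± 11662 and 42949.9 ± 2660 (SD, n = 7). In a culture measured in bulk, fewer cells of a type and less RNA per cell cannot be told apart.

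The myogenic markers lay in the middle of the ranking. Cdh15, the M-cadherin of satellite cells and myoblasts, had 1050, 1317, 1275 and 1438 at 4 h and 1198, 1225 and 1147 at 48 h. Every one of these lay below the left-out arrays, at 1560 and 1923. Des, desmin, had 551, 712, 918 and 877 at 4 h and 984, 738 and 715 at 48 h, and these values overlapped the left-out ones, 520 and 706. The means were 1236 ± 125 for Cdh15 and 785 ± 149 for Des (SD, n = 7), at the 52.8th and 41.5th percentile of genes. Neither probe set was brighter in the vehicle arrays than in both arrays with liver signal.

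**Figure D1:**
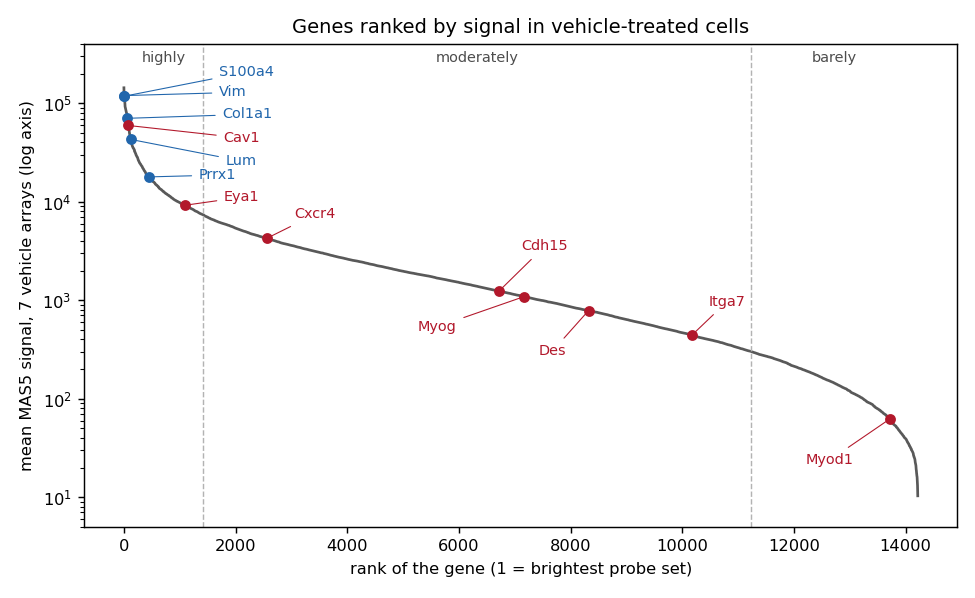
Genes ranked by mean MAS5 signal over the 7 vehicle arrays (y, log axis) against rank (x, 1 is the brightest), with dashed lines at the limits of the bands. Mesenchymal markers (blue) sat in the highly expressed band, while satellite cell and myogenic markers (red) were spread from Cav1 at 59473 to Myod1 at 62.0.

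The highly expressed band held 1422 genes with signals from 7373 to 143641 and a median of 12621. The moderately expressed band held 9817 genes (69.1%) and the barely expressed band 2978 (20.9%). At the upper limit, Gstm1 (7372.8 ± 665) was the last gene inside the highly band and Mmadhc (7372.3 ± 883) the first outside it. At the lower limit these were Dcc (300.2 ± 109) and LOC102551009 (299.9 ± 126), so neither limit marks a step in the data. Precision followed brightness. The median coefficient of variation over the 7 arrays was 8.88% for highly, 16.4% for moderately and 59.3% for barely expressed genes, of which 1560 lay under 300 in every array.

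A reading of the dim end came from 18 olfactory receptor genes, which serve mainly in the sensory cells of the nose. Their median signal was 447 and their highest 695, and 13 of the 18 lay at or above 300. The 95th percentile of these genes was 649, and 5280 genes, or 37.1%, were dimmer than that. Signals of up to 695 were thus reached by genes of another tissue. The Des mean, at 785, lay just above the brightest olfactory receptor, and Myod1, Myf6 and Itga7 lay below it. In 27 bacterial control probe sets the mean signals were lower, at 13.4 to 273 with a median of 75.2.

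The brightest genes were those of translation, matrix and the cytoskeleton. Ribosomal protein genes made up 5 of the top 10, 15 of the top 30 and 38 of the top 100. The other 15 of the top 30 were led by Tmsb4x, thymosin beta 4, which sequesters actin monomers, at 143641 ± 20106 (SD, n = 7). Next came Col1a2, the second chain of type I collagen, at 127739 ± 15058, and Vim, the intermediate filament vimentin of mesenchymal cells, at 119635 ± 17345. S100a4 followed, then COX2, a mitochondrially encoded subunit of cytochrome oxidase, at 115274, and Lgals1, the lectin galectin 1, at 113664.

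Further down the top 30 were Eef1a1, a translation elongation factor, at 106753 and COX1, at 106122. COX1, another mitochondrially encoded subunit of cytochrome oxidase, varied more than its neighbours, from 73450.3 to 158634. The signal of Akr1b8, an aldo-keto reductase, was 105810.0 ± 11215 (SD, n = 7), that of Col3a1 (type III collagen) 103921 and that of S100a6 (a relative of S100a4) 100957. The glycolytic enzyme Pgk1 had 92393, the glutathione transferase Gstp1 91249, Col5a2 (a chain of type V collagen) 89452 and the redox protein Txn1 89423. The top 100 genes carried 16.7% of the summed signal of all ranked genes. Of these 100, 9 were on the structural matrix list, 8 on the fibroblast list and 1 on a satellite cell or myogenic list, namely Cav1.

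Genes of the extracellular matrix were bright or moderate. Of 49 listed structural genes 48 were found, and 25 were highly, 23 moderately and 0 barely expressed, with a median signal of 7913 against 1110 over all genes. Fibrillar collagens led the list: Col1a2, Col3a1 and Col5a2 were followed by Mfap5, a protein of elastic microfibrils, at 87396 ± 8840.4 (SD, n = 7). The dimmest members were Eln, the elastin gene, at 449.7 ± 120 and Mfap2, a partner of Mfap5, at 319 ± 198. Collagen is folded and hydroxylated in the endoplasmic reticulum, and 19 of 25 genes of that compartment were highly expressed. These included P4hb, a subunit of collagen prolyl hydroxylase, at 50731 and the collagen chaperone Serpinh1 at 35350.5, while Crtap, another partner of the collagen hydroxylases, was dim at 294.

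On the same probe sets, 41 of the 48 matrix genes were brighter in all 7 vehicle arrays than in both left-out NARA 4 h arrays, and 3 were dimmer (Col18a1, Fbln2 and Eln). Over all ranked genes, 29.5% were brighter and 25.4% dimmer by this rule. These shares are the background for every such count below. The summed signal of the list was 1026220 to 1214640 in the vehicle arrays and 134964 and 165889 in the left-out arrays. Col1a2 had 127739 against 3973 and 4866, and Col3a1 103921 against 15101 and 18925. The share of bright genes was itself tied to this reading, since 74.8% of highly expressed genes and 1.58% of barely expressed genes were brighter than in both left-out arrays. Dimmer than in both were 10.3% of highly and 32.7% of barely expressed genes.

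Fibroblast and mesenchymal markers formed the brightest of the identity lists. All 35 were found, and 22 were highly, 12 moderately and 1 barely expressed, with a median of 14581. Col1a2, Vim, S100a4 and Col3a1 stood at its head. At its foot were Timp3, an inhibitor of metalloproteinases, at 320.3 ± 108 and Cthrc1, a secreted regulator of collagen deposition, at 203 ± 191 (SD, n = 7). Of the 35, 28 were brighter than in both left-out arrays and 5 dimmer (Dpt, Nt5e, Eng, Cdh2 and Timp3). The list shares Col1a1, Col1a2, Col3a1, Lum and Mfap5, among others, with the matrix list, so the pair are not separate evidence.

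Markers used for fibro-adipogenic progenitors, the resident mesenchymal cells of muscle, were intermediate. Of 24 listed 20 were found, with 6 highly, 13 moderately and 1 barely expressed and a median of 2899. Mfap5, Lum, the actin-severing protein Gsn at 14581 and the matricellular protein Smoc2 at 14354 were brightest. Clec3b, tetranectin, was dimmest at 250.5 ± 189 (SD, n = 7), beside the chemokine Cxcl14 at 309.7. Of the 20, 13 were brighter and 2 dimmer than in both left-out arrays.

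Transcription factors of mesenchyme stood well above the middle of the ranking. Of 26 found, 7 were highly, 18 moderately and 1 barely expressed, with a median of 3245 and a median percentile of 76.4. Prrx1, a homeobox factor of limb and fibroblast mesenchyme, had a lowest, median and highest signal of 14726.5, 17051 and 22700.3, against 212 and 391 in the left-out arrays. The vehicle and left-out values did not overlap. Its relative Prrx2 had 14586 ± 2354, Zeb1, a repressor of epithelial genes, 12476 ± 1082 and Klf4, a zinc finger factor, 10268 ± 1711 (SD, n = 7). The dimmest were Foxf1 at 394 and Tcf21, a factor of fibroblast progenitors in heart and kidney, at 249. Of the 26, 18 were brighter and 2 dimmer than in both left-out arrays.

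**Figure D2:**
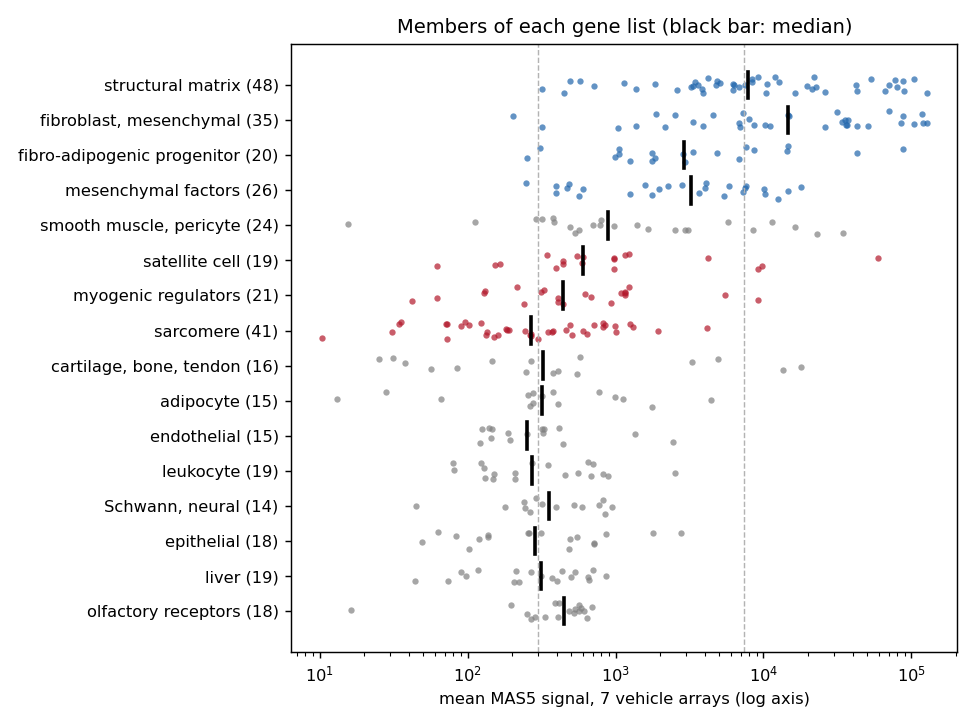
Mean MAS5 signal over the 7 vehicle arrays (x, log axis) of each member (points) of 16 gene sets, with the number found in brackets, black bars at the medians and dashed lines at the band limits. The structural matrix and fibroblast sets had medians of 7913 and 14581, the satellite cell and myogenic regulator sets 599 and 442, and the sarcomere set 268.

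Satellite cell markers were split. Of 27 listed, 19 were found, with 3 highly, 13 moderately and 3 barely expressed, a median of 599 and a median percentile of 35.3. The defining factors Pax7, Pax3 and Myf5, along with Cd34, Megf10, Msc and Barx2, were not named in the annotation used here and were not analysed. The cells could therefore not be checked against the markers that define satellite cells most closely. Of the 19, 9 were brighter than the brightest olfactory receptor. Against the left-out arrays, 5 were brighter (26.3%) and 7 dimmer (36.8%), beside 29.5% and 25.4% of all ranked genes.

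The 3 highly expressed members were Cav1, Sdc4 and Eya1. Cav1, caveolin 1, is found in satellite cells and also in fibroblasts and endothelium, and had a lowest, median and highest signal of 54334, 58588 and 67216 against 610 and 440 in the left-out arrays. Sdc4, syndecan 4, a heparan sulfate proteoglycan, had 8155, 9649 and 12258, and lay below the left-out 31462 and 19450.3. Eya1, a phosphatase that coactivates homeobox factors in muscle precursors, had 7668, 9202 and 11098, against 667 and 559. Its homeobox partner Six4 had 873, 1186 and 1378, against 21.8 and 35.7. For Eya1 and Six4 no vehicle array overlapped the left-out ones.

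After Cav1 and Sdc4, the brightest surface protein gene of the list was Cxcr4, the receptor of the chemokine Cxcl12. It had a lowest, median and highest signal of 2510.1, 4462 and 5191 against 58.5 and 373, and all 3 of its probe sets were brighter in vehicle. Ncam1, the neural cell adhesion molecule, had 670, 904 and 1469, above the left-out 135 and 499.9, but another of its 3 probe sets, at 33.1 to 702, overlapped its left-out values of 257 and 1066. The hepatocyte growth factor receptor gene Met had a mean of 975 ± 172 (SD, n = 7), and its values overlapped the left-out ones. Notch3 (971 ± 199), the Notch target Heyl (599 ± 106) and the syndecan Sdc3 (547 ± 199) overlapped them too.

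The other surface markers were dim. Itga7, the laminin-binding integrin subunit used to sort satellite cells, had a mean of 441 ± 196 (SD, n = 7), Vcam1, a further sorting marker, 345 ± 70.2 and the calcitonin receptor Calcr 598 ± 138. On their brightest probe sets all 3 lay below both left-out arrays. So did Spry1, an inhibitor of receptor tyrosine kinases, at 395, and Fgfr4, a fibroblast growth factor receptor, at 165 ± 92.1. A further Itga7 probe set was lower as well. The dimmest Itga7 probe set and the other Calcr probe set overlapped their left-out values. The BMP antagonist Chrdl2, at 442, and the homeobox factor Meox2, at 153 ± 119, overlapped the left-out values.

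Regulators of muscle commitment were mostly dim, with 1 highly, 14 moderately and 6 barely expressed of 21 found. Their median was 442 and their median percentile 28.5. Myod1, the factor that commits cells to muscle, had a lowest, median and highest signal of 18.0, 41.4 and 189.8, which overlapped the left-out 102 and 26.7. Myog, which drives differentiation, had 889, 959, 1929 and 800.3 at 4 h and 800.3, 1223 and 1021 at 48 h. Vehicle 4 h replicate 3 was highest, and the values overlapped the left-out 1440 and 1985. Myf6, of the same family, had a mean of 129 ± 101 (SD, n = 7), below both left-out arrays.

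Factors that act with this family were brighter. Of the MEF2 factors, Mef2a had a mean of 5469 ± 784, Mef2c 1225 ± 208 and Mef2d 1154 ± 192 (SD, n = 7). Mef2a and Mef2c were brighter than in both left-out arrays, although Mef2a is used in many tissues. The second Mef2c probe set, at 154 to 666, overlapped its left-out values of 151 and 422. Eya2, a relative of Eya1, had 618 and Tead4, a factor of the Hippo pathway, 329.7. Both overlapped the left-out values.

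Genes of the neuromuscular junction and of fusion were near the olfactory range. The synapse organisers Dok7, at 1156 ± 307, and Rapsn, at 938 ± 243 (SD, n = 7), were above it, and Musk, their receptor kinase, was at 409. Of the acetylcholine receptor subunits, Chrnd had 442, Chrnb1 313, Chrna1 217 and Chrng 131. Mymk, the fusion protein myomaker, was barely expressed at 242 ± 117 and lower than in both left-out arrays. The cell cycle inhibitor Cdkn1c (686), the ankyrin Ank1 (405) and the myosin-binding protein Mybph (42.4) complete the list. Among the 21, 4 were brighter than in both left-out arrays (Mef2a, Mef2c, Six4 and Eya1) and 4 dimmer. Each count is 19.0% of the list, beside 29.5% brighter and 25.4% dimmer over all ranked genes.

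**Figure D3:**
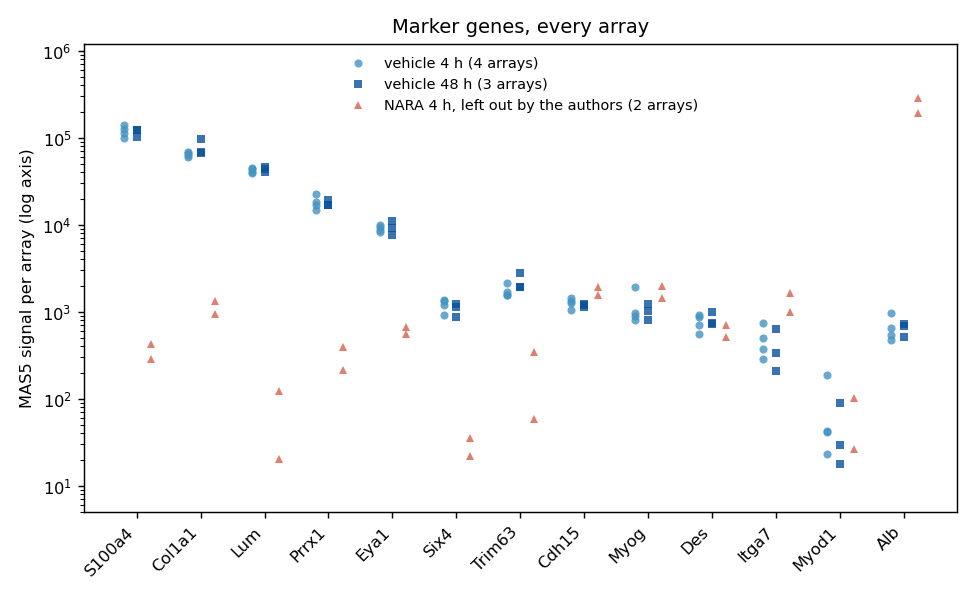
MAS5 signal of 13 genes (x) in each array (y, log axis), with circles for vehicle 4 h, squares for vehicle 48 h and triangles for the 2 left-out NARA 4 h arrays. S100a4, Col1a1, Lum, Prrx1, Eya1, Six4 and Trim63 lay above the triangles in every vehicle array, Cdh15, Itga7 and Alb below them, and Myog, Des and Myod1 overlapped them.

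The contractile apparatus was the dimmest of the muscle lists. Of 41 sarcomere and calcium-handling genes found, 0 were highly, 18 moderately and 23 barely expressed, with a median of 268 and a median percentile of 19.0. Over all genes, 20.9% were barely expressed, against 56.1% of this list. The brightest member was Myh1, a fast myosin heavy chain, at 4136 ± 654 (SD, n = 7), but its brightest probe set had 24179 and 33575 in the left-out arrays, and all 5 of its probe sets were dimmer in vehicle. Trim63, a muscle ubiquitin ligase, had 1940.2 ± 429.6, Tnnc1, the troponin C of slow muscle and heart, 1320.3 ± 159 and Casq1, a calcium store protein, 1245 ± 192. These last 3 were brighter than in both left-out arrays. At the foot stood Myl11, a myosin light chain, at 31.0 and Myoz2, a Z-disc protein, at 10.3. Of the 41, 7 were brighter and 7 dimmer than in both left-out arrays (17.1% each), and 10 exceeded the brightest olfactory receptor. Over all ranked genes 29.5% were brighter and 25.4% dimmer.

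Genes that link the cytoskeleton to the matrix were brighter than the sarcomere genes. Of 13 found, 3 were highly, 8 moderately and 2 barely expressed. The integrin beta 1 gene Itgb1, at 37325 ± 3953, the focal adhesion protein Vcl, at 21179 ± 1377, and Dag1, dystroglycan, at 8497 ± 1075 (SD, n = 7), are used by many cells. Sgcb, a sarcoglycan, had 6529. Dysf, the membrane repair protein dysferlin, had 5996 ± 376 and Sspn, sarcospan, 4914 ± 317 (SD, n = 7). The dimmest were Cav3, the caveolin of muscle, at 233 and Dmd, dystrophin, at 71.0. Among 12 intermediate filament genes, Vim was followed by the lamin gene Lmna at 13630.5, the linker Plec at 7136 and Sync, a partner of desmin, at 6987. Nefl and Prph, filaments of neurons, were at 262 and 259.

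**Figure D4:**
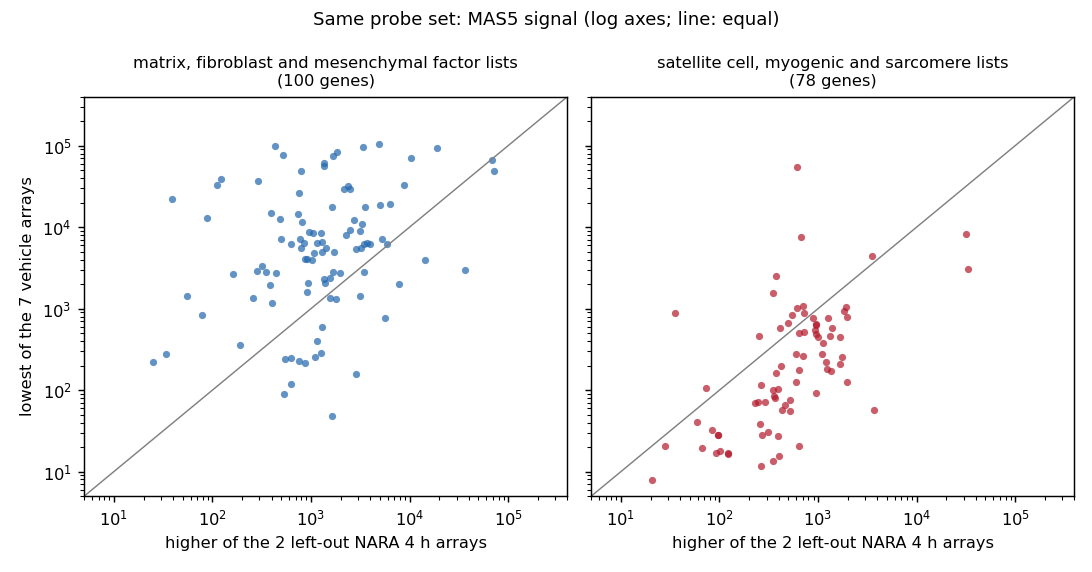
Lowest signal of the 7 vehicle arrays (y) against the higher of the 2 left-out NARA 4 h arrays (x) on the same probe sets, both log axes, for 100 genes of the mesenchymal lists (left) and 78 of the myogenic lists (right). Points above the line of equality were brighter in every vehicle array, as were 41 of 48 matrix genes and 7 of 41 sarcomere genes. The share over all ranked genes was 29.5%.

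The list of non-muscle cytoskeletal and associated genes was bright. Of 31 found, 25 were highly, 6 moderately and 0 barely expressed, and 30 were brighter than in both left-out arrays. Tmsb4x, Vim, Lgals1 (a lectin that the list holds) and the cytoplasmic actin Actg1, at 87956, led, and the myosin Myh10 (3718) and the membrane linker Ezr (3072) were dimmest. Of 24 smooth muscle and pericyte genes, 5 were highly, 16 moderately and 3 barely expressed. Tpm2 and Tpm1, tropomyosins, had 34663 and 16298, the calponin Cnn2 23166 and Tagln, an actin-binding protein of contractile fibroblasts, 11438.5 ± 3611 (SD, n = 7). The channel gene Ano1 and the ligand Angpt1 were dimmest, at 113 and 15.6.

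The S100 family, which holds S100a4, was split between bright and dim members. Of 13 found, 4 were highly, 5 moderately and 4 barely expressed. S100a4 and S100a6 were joined by S100a11 at 83982 ± 8239 and S100a10 at 78450.1 ± 5813 (SD, n = 7), and all of these were brighter than in both left-out arrays. S100a9 and S100a8, the pair made by myeloid cells, were at 112 and 25.7.

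Markers of other cell types were dim in the vehicle arrays. Over 6 such lists (endothelium, leukocytes, Schwann cells and neurons, adipocytes, epithelium and liver) 100 genes were found, with 0 highly, 51 moderately and 49 barely expressed and a median of 316. Of the 100, 5 were brighter and 63 dimmer than in both left-out arrays, beside 29.5% and 25.4% of all ranked genes. The 63 include all 19 liver genes, whose brightness in the left-out arrays was already given above, so for these the outcome was known. For endothelium the defining gene Pecam1 had 416 ± 94.6 (SD, n = 7), for leukocytes Ptprc had 81.0 ± 30.9 and for epithelium Epcam had 138 ± 122. Single members stood higher. Egfl7 had 2452 and Esam 1359.5 among endothelial genes, Cd14 had 2521 among leukocyte genes, Jup, the junction protein plakoglobin, had 2764 among epithelial genes and Cebpb, a transcription factor of many tissues, had 4416 among adipocyte genes. The summed signal of the leukocyte list was 7952 to 10528 in vehicle and 59711 and 64552 in the left-out arrays, and that of the endothelial list 5845 to 8276 against 14224 and 15125. The part of such cells in the signals above was not tested.

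Cartilage, bone and tendon genes were about as dim as these lists, apart from 4 members. Of 16 found, 2 were highly, 6 moderately and 8 barely expressed, with a median of 322. Spp1, osteopontin, had 18028 ± 3416, Thbs4, a thrombospondin of tendon and muscle matrix, 13586 ± 1496, Tnmd, a membrane protein of tendon cells, 4912 ± 661 and Scx, the tendon transcription factor scleraxis, 3272 ± 482 (SD, n = 7). All 4 were brighter than in both left-out arrays. The bone genes Alpl and Bglap were at 31.4 and 25.2.

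Secreted factors and surface proteins gave the cells a further profile. Of 45 secreted regulators, 15 were highly, 27 moderately and 3 barely expressed, led by the protease inhibitor Timp2 at 85662, Serpinf1, an antiangiogenic serpin, at 64132, the membrane protease Mmp14 at 35444 and the BMP antagonist Grem1 at 35102. Serpinf1 was dimmer than in the left-out arrays. The binding protein Igfbp3 and the growth factor Hgf were lowest, at 110.2 and 85.2. Of 31 adhesion and surface genes, 13 were highly expressed, and the tetraspanins Cd63, Cd9 and Cd81 led at 62509, 53871 and 48940.1. The epithelial cadherin Cdh1 and the integrin Itga1 were at 119.8 and 80.5.

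Glycolytic genes were brighter than most, and cell cycle genes mostly moderate. Of 18 glycolytic genes, 10 were highly and 8 moderately expressed, with Pgk1, Aldoa (63136), Tpi1 (57383) and Eno1 (55268) brightest and Hk2 (561) dimmest. Of 32 cell cycle genes, 2 were highly, 28 moderately and 2 barely expressed, and 23 were brighter than in both left-out arrays. The 2 bright ones were Cdkn1b, a brake on the cycle, at 16705 ± 331 and Pcna, the clamp of DNA replication, at 11421 ± 2179 (SD, n = 7). Cyclin D1 (Ccnd1) had 4094 and the mitotic kinase Cdk1 4022. The inhibitors Cdkn2a and Cdkn2b were at 18.2 and 149.6.

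The baseline did not move detectably with time for any single gene. In limma, 0 of 20904 probe sets passed an adjusted p of 0.05 between 48 h and 4 h of vehicle (0%), while 1536 had an unadjusted p under 0.05. Of 11281 tested genes, 7.9% had an unadjusted p under 0.05 and 9.63% had times that did not overlap. Without vehicle 48 h replicate 2, 2 probe sets passed, both lower at 48 h.

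The 5 markers shown first did not differ beyond the spread between arrays. The log2 difference of 48 h from 4 h was -0.04 for S100a4 (SE 0.128), 0.22 for Col1a1 (SE 0.166) and 0.05 for Lum (SE 0.102). It was -0.08 for Cdh15 (SE 0.196) and 0.09 for Des (SE 0.190). The adjusted p in limma was 0.962, 0.801, 0.945, 0.954 and 0.944 in that order. The median difference was 0.04 over 48 matrix genes, 0.07 over 34 tested fibroblast genes, -0.05 over 16 satellite cell genes and -0.14 over 18 sarcomere genes, against 0.00 over all tested genes. An unadjusted p under 0.05, met by 7.9% of all tested genes, was met by 3 of 48 matrix genes (6.25%), 3 of 34 fibroblast genes (8.82%), 0 of 16 satellite cell genes and 0 of 18 sarcomere genes. It was met by 2 of 15 myogenic regulators (13.3%), 3 of 20 fibro-adipogenic progenitor markers (15%), 4 of 25 mesenchymal factors (16%) and 5 of 21 smooth muscle and pericyte genes (23.8%). None of these genes passed in limma after adjustment.

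The genes with the smallest p were on none of the myogenic or mesenchymal identity lists. Higher at 48 h in value were Igfbp5, a binding protein of insulin-like growth factors, by 0.79 (SE 0.169), Sall1, a zinc finger factor, by 0.68 (SE 0.141), Ralgdsl2 by 0.66, Cmbl by 0.64 and Tk2, the mitochondrial thymidine kinase, by 0.58. Lower in value were the olfactory receptor Or10g1b at -1.55, Ccnb1 at -0.95, Mad2l1 at -0.89, C9h6orf141 at -0.86 and Ggnbp1 at -0.81. All 10 had adjusted p = 0.421 in limma and did not pass. The times did not overlap for any of them, as they did not for 9.63% of all tested genes. A choice by smallest p in this comparison favours such genes, so nothing is drawn from it. Ccnb1 and Mad2l1 act in mitosis. Of 30 tested cell cycle genes, 25 had a negative difference, with a median of -0.44, and 13 (43.3%) had an unadjusted p under 0.05. Among all 11281 tested genes, 5594 had a negative difference and 7.9% an unadjusted p under 0.05.

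**Figure D5:**
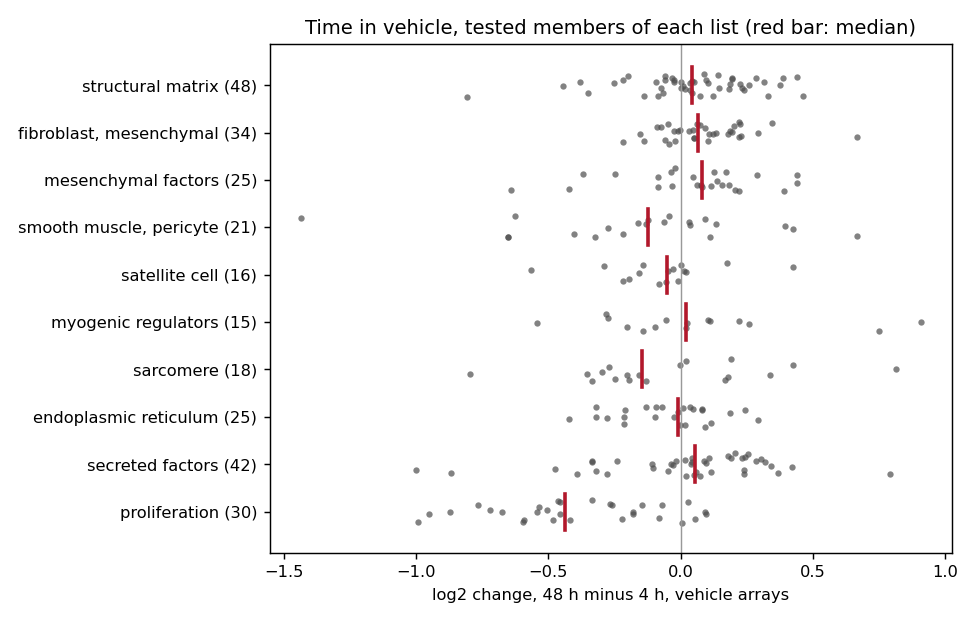
Log2 difference of 48 h from 4 h in vehicle (x) for the tested members (points) of 10 gene lists, with the number tested in brackets and red bars at the medians. Medians lay between -0.14 and 0.08 except for cell cycle genes, at -0.44, and 0 of these genes passed the threshold.

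Promoter composition followed the bands. Of the 14217 ranked genes, 11700 had a RefSeq promoter in build GRCr8, from 250 bases before to 50 after the start, and the first entry of a gene was used. The median ratio of observed to expected CpG was 0.819 for highly, 0.754 for moderately and 0.430 for barely expressed genes. The median GC content was 61.3%, 60.7% and 56.0% in the same order. GGGCGG, the letters of a GC box on either strand, was found in 69.4%, 60.7% and 40.6%.

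The brightest identity lists had a lower CpG ratio than the highly expressed band as a whole, which was not tested. The median CpG ratio was 0.507 over 32 matrix genes and 0.477 over 23 fibroblast genes with an entry. It was 0.663 over 14 satellite cell genes, 0.374 over 11 myogenic regulators and 0.235 over 35 sarcomere genes. TATAAA began between 40 and 20 bases before the start, on the strand of the gene, in 6 of 35 sarcomere promoters (17.1%), 2 of 23 fibroblast promoters (8.7%) and 0 of 32 matrix promoters, against 1.88% of all ranked genes. CANNTG was in 85.7% of sarcomere promoters and 65.0% of those of all ranked genes. These shares describe letters in a window, and no match says only that the letters are not there.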

How the data were processed

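Biotin-labelled RNA (5 µg of total RNA per sample, per the labels) was hybridised to Affymetrix Rat Genome 230 2.0 arrays, 1 for each sample. The labels name Trizol for the extraction, whereas the design text names a column kit. The deposited values are linear intensities, MAS5 signals per the submitters' processing notes, which the authors scaled to a trimmed mean of 1500 (1500.47 to 1500.49 on the 7 arrays). The number of arrays limits the precision.

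After 57 control probe sets were set aside, 31042 were left, and the platform annotation gave 20826 of these 1 symbol, 436 several and 9780 none. Genes were ranked by their brightest probe set over the 7 arrays. Bands, lists and the naming rule are descriptions with no test. Named genes were the 5 markers, the 30 brightest genes, the 4 brightest and 2 dimmest members of each list, all satellite cell and myogenic members, and the 10 genes of smallest p for time. Pecam1, Ptprc, Epcam, Sgcb, Dysf, Sspn and the genes named as dimmer in a list were added after their values were seen. The members and the 26 lists were chosen with earlier results of these data known.

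Time was tested with limma 3.58.1 in R 4.3.3, on log2(signal + 50), with a model of 4 group means over the 13 arrays kept by the authors and Benjamini-Hochberg adjustment over 20904 probe sets with a mean of at least 300. Dim genes' changes are understated on this scale. Each of 5 simulated runs for this comparison changed 200 of 20904 probe sets, with noise drawn independently for each probe set. The share recovered was 19.4% at 1.5-fold, 51% at 2-fold and 84.5% at 4-fold. Of the calls, a mean of 4.65% were false. Alternatives covered the probe set of a gene, the arrays averaged, normalization, band limits, offsets, filters, the replicate number and each array in turn.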

Additional observations from a re-analysis of the deposited data

Results flagged for a closer look

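Within the 4 vehicle 4 h arrays, 183 named genes were checked for 1 array set apart from the others on the log2 scale (Dixon's 95% critical value). Of these, 13 (7.1%) were picked out. The check sets the gap to the nearest array against the full range, so a small difference can be picked out. Chance picks out about 1 in 20 groups. No explanation of these values was tested.

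Vehicle 4 h replicate 1 was the array picked out for 7 genes. It was high for the cell cycle inhibitors Cdkn2a (41.3, others 9.54 to 10.8) and Cdkn2b (308, others 55.6 to 76.6), for Cthrc1 (345, others 98.8 to 101) and for Mybph (67.8, others 23.9 to 27.4). It was low for the fusion gene Mymk (92.8, others 344 to 377), for Notch3 (952, others 1037 to 1045) and for the synaptic gene Syt1 (436, others 816 to 917).

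Replicate 3 was high for Mef2d (1468, others 1012 to 1075) and for Vcam1 (456, others 308 to 325), and low for Jup (1869, others 2574 to 2747). Replicate 4 was low for the lamin gene Lmna (11696, others 14379 to 14896) and for Meox2 (27.2, others 218 to 279). Replicate 2 was high for S100a8 (74.7, others 11.7 to 17.8). Lmna is the 1 highly expressed gene among these, and Cdkn2a, Cdkn2b, Cthrc1, Mybph, Mymk, Meox2 and S100a8 are barely expressed.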

How the results depend on the processing

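Under each alternative run, 21 to 25 matrix genes and 0 sarcomere genes were highly expressed. Taking a gene's median probe set put the matrix list at a median of 4288 with 2 members barely expressed, the fibroblast list at 8580 with 2, the satellite cell list at 442 with 6 and the sarcomere list at 191. That choice also raised the barely expressed band from 2978 to 4098 genes. Of the 1422 highly expressed genes, 1053 stayed in their band. With only plain probe sets the matrix median was 7156, the fibroblast median 12858, and 2 fibroblast members were barely expressed. The matrix median was 7693 in the 4 h arrays and 8178 over all 8 vehicle arrays, and 1 matrix gene was barely expressed in the 48 h arrays. The barely expressed band held 1563 genes with a limit of 150, 5029 with 600, 4618 with the 95th percentile of Olr genes and 5280 with that of Olr and Or genes, the last chosen after seeing the data. The lowest Spearman correlation between arrays was 0.928.

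Leaving out each array in turn gave 0 to 1 barely expressed matrix genes, 1 to 2 barely expressed fibroblast genes and 0 to 2 calls for time. The 2 calls came without vehicle 48 h replicate 2, and Ggnbp1, at -1.03, was among them. With the replicate number as a block the count for time was 0, with a smallest adjusted p of 0.0923. Deviations of same-numbered arrays correlated at 0.02, 0.00 and 0.03, within the -0.05 to 0.05 of differently numbered ones. So few pairs cannot settle whether the numbers pair the arrays. Every other setting of this fit gave 0 too, with 470 to 1912 probe sets at an unadjusted p under 0.05. With the fit for time included, 96 alternative values that left out no single array moved by less than the spread between arrays, or by under 1.5 times for counts. Another 18 moved by more. Detection calls were not used here, signals up to 695 overlap those of olfactory receptors, and affinity differs between probe sets.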

Other observations

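Among the 1422 highly expressed genes, 9 had a coefficient of variation of at least 30% over the 7 arrays, and several of the most variable ones had their high values at one time point. These genes were chosen for their spread, after their values were seen, so the values are a description with no test. Serpinb2, an inhibitor of plasminogen activators, varied most, at 42.5%. Its signals were 11461, 9258, 16353 and 9553 at 4 h and 5531, 6474 and 5521 at 48 h, and vehicle 48 h replicate 1, which the authors left out, had 5726. Its relative Serpinb7 had 11904, 10617, 14344 and 10161 at 4 h and 5708, 6459 and 6184 at 48 h, with 4653 in the left-out vehicle array. For both serpins the times did not overlap, and the left-out vehicle array sat with or below the 48 h arrays.

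In 2 others of the 9 the times did not overlap either, with higher values at 48 h. Over all tested genes the times did not overlap for 9.63%. A choice by spread over both times favours such genes, so nothing about time is drawn from the count. Ldb2, a cofactor of LIM-domain transcription factors, spanned 7402 to 11359 at 4 h and 11843 to 18392 at 48 h. Grina, a membrane protein, spanned 5726 to 7828 at 4 h and 8094 to 13854 at 48 h. In the remaining 5, Col6a2, Tagln, COX1, Gnai2 and Phf14, the times overlapped. Col6a2, a chain of type VI collagen, had 19115 and 16242 in vehicle 48 h replicates 2 and 3 but 8557 in replicate 4, below the lowest 4 h value of 9480.2. Tagln had 16611, 13876, 14703 and 9238 at 4 h and 8496, 10148 and 6997 at 48 h, so the times overlapped. The mitochondrially encoded COX1 was highest in vehicle 4 h replicate 2, at 158634, and lowest in vehicle 4 h replicate 4, at 73450.3.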
